A study of Takifugu rubripes with 9 samples.

Results

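The miR-204 family was followed through 8 tissues of *Takifugu rubripes*, the torafugu or tiger pufferfish, with emphasis on the eye. All reads under the miRBase names miR-204 and miR-211, with or without a letter and from any species, were taken as members. This gave 4 names (mir-204, mir-204a, mir-204b, and mir-211 as hairpin names) of 377 names in the files, 74 of 8194 distinct sequences, and 59768 of 5232809 reads. The 4 names divided into 8 of 631 features, a feature being a 5p arm, a 3p arm, or the precursor-only reads of a name (reads matching the hairpin but not recorded as a form of its mature miRNA). Only 3 of these 8 features reached 100 RPM (reads per 1000000 small RNA reads of 18–25 nt) in a library, namely miR-204a-5p, miR-204b-5p, and the precursor-only reads of miR-204a, among 215 features that did so in the whole series.

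The study sequenced small RNAs of wild-type adult fish to find which miRNAs are expressed in which tissue. Eye was set here against brain, slow muscle, intestine, heart, liver, ovaries, and testes, while fast muscle was not analysed here. The tissues were dissected from a pair of fish, and the sources used here do not tell which fish supplied which library of the other tissues than the gonads. Ovaries and testes differ in sex and thus in fish, which cannot be told apart from the tissue. Each tissue was 1 library, so differences are differences between libraries, intervals reflect the error of counting alone (reads copied by PCR carried no molecular identifiers), and an exact permutation test of 1 library against 7 could not give a p below 0.125.

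miRNAs are loaded into Argonaute proteins and pair with target mRNAs mainly through the seed, bases 2 to 8 from the 5′ end. miR-204 and miR-211 are paralogs with a shared seed and a nearly identical remainder. In mammals miR-204 is transcribed from an intron of TRPM3 and miR-211 from an intron of TRPM1. miR-204 is abundant in the retinal pigment epithelium, ciliary body, and lens of vertebrates, and in medaka its loss disturbs lens and optic cup formation through the transcription factor Meis2. miR-211 is best known from pigment cells, where the transcription factor MITF drives it together with TRPM1.

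The leading sequences of the members are shown because the family differs at few bases outside the seed. They are written 5′ to 3′ as DNA, as in the deposited files, with the seed in capitals.
miR-204a-5p: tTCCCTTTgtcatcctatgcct
miR-204b-5p: tTCCCTTTgttatcctatgcct
miR-211-5p, mouse entry: tTCCCTTTgtcatcctttgcct
miR-211-5p, human entry: tTCCCTTTgtcatccttcgcct
Counting from 1 at the 5′ end, miR-204b-5p differed from miR-204a-5p by C11T alone. The mouse form of miR-211-5p differed from miR-204a-5p by A17T, and the human form by A17T and T18C. The seed TCCCTTT was carried by 26 sequences with 56928 reads, and 0 sequences outside the family had it.

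The members came from entries of different species. All 51060 reads of miR-204a were assigned to an entry of the torafugu itself (36 sequences). All 8472 reads of miR-204b were assigned to an entry of the green spotted pufferfish *Tetraodon nigroviridis* (15 sequences). The name miR-204 without a letter gathered 62 reads of a lamprey entry, 24 of a human, 11 of a zebrafish, and 2 of a platypus entry. The name miR-211 gathered 123 reads of a mouse, 11 of a human, and 3 of a cattle entry. No family sequence was assigned to more than 1 miRNA, and 64 sequences of the whole series were.

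Markers of eye tissue were partly concentrated in the eye library. Of 11 miRNAs listed for eye, 6 were highest in eye and 5 in brain. Of its 5 miRNAs of retinal neurons, miR-124, miR-183, miR-96, and miR-182 were highest in eye. The excess of miR-124 over brain was small, at 1.43-fold (110682 RPM in eye, 77630 RPM in brain). The 5 together had 119245 RPM in eye and 92363 RPM in brain. Of these 5, miR-9 was highest in brain (2500 RPM in eye, 14190 RPM in brain), and miR-124 and miR-9 are both shared by neurons in general. The other 4 that were highest in brain were miR-125b (8191 RPM in eye, 17313 RPM in brain), miR-181a (1862 RPM in eye, 2121 RPM in brain), miR-181b (162 RPM in eye, 221 RPM in brain), and miR-7 (37.5 RPM in eye, 1824 RPM in brain). miR-184, abundant in lens and cornea, had 6433 RPM in eye, which was 135-fold over the next library. miR-205, an epithelial miRNA of the cornea, had 107 RPM in eye against 18.2 RPM in slow muscle. miR-202 of the gonads had 0 reads in eye, where the floor of 3 reads corresponds to 2.16 RPM, and the liver miRNA miR-122 had 1.44 RPM, below that floor. Markers of other tissues and cells were above it in eye. Red blood cell miR-451 had 26206 RPM, endothelial miR-126 8779 RPM, muscle miR-1 3917 RPM, and leukocyte miR-223 1444 RPM. Intestinal miR-192 had 48.3 RPM, and miR-375 of the endocrine pancreas 38.2 RPM. Each of these was highest in a library other than eye. Annotated reads numbered 458800 in eye and 54540 to 1207961 in the other libraries. RPM were not scaled to these annotated reads but to the small RNA reads in the definition of RPM above. On that scale 1 read was worth 0.721 RPM in eye and 0.210 to 0.830 RPM elsewhere.

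miR-204a-5p dominated the family in eye. Its 45090 reads equalled 32498 RPM (95% Wilson interval 32204 to 32794) and 9.83% of all annotated eye reads. It ranked 2 among all features of the eye, behind the neuronal miR-124-3p (87327 RPM) and ahead of miR-451-5p (26196 RPM), a miRNA of red blood cells. The remaining 7 of the 10 most abundant features in eye were miR-124b-3p at 17435 RPM, miR-145-5p at 12425 RPM, miR-100-5p at 9664 RPM, miR-22a-3p at 8201 RPM, miR-125b-5p at 8184 RPM, miR-29a-3p at 6559 RPM, and the precursor-only reads of miR-199 at 6412 RPM. Of these 10 features, miR-204a-5p was the one with the lowest level in brain.

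In the other libraries miR-204a-5p had 4041 reads (2099 RPM) in slow muscle, 683 reads (567 RPM) in liver, 394 reads (156 RPM) in heart, 406 reads (152 RPM) in brain, and 238 reads (69.6 RPM) in intestine. Ovaries had 22 reads (4.62 RPM), and testes had 2 reads (0.946 RPM), fewer than the floor of 3 reads. Eye therefore stood apart from every other library, slow muscle followed, and the gonads were at the bottom. Each library in this order exceeded the next one beyond counting error, except that heart and brain could not be told apart (ratio 1.03, exact interval 0.890 to 1.18). Relative to annotated reads ovaries over testes was 1.12 (0.274 to 9.79), so these also could not be told apart.

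**Figure D1:**
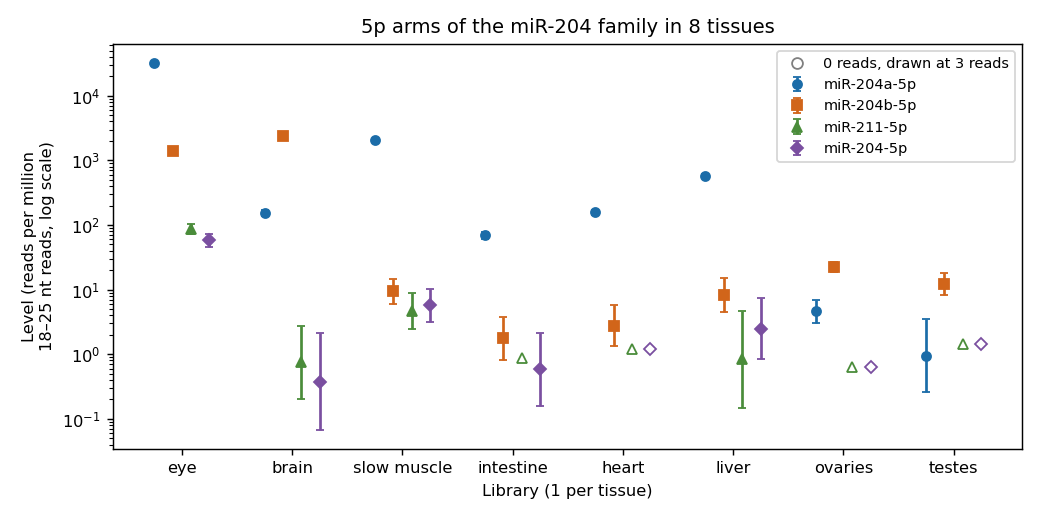
Levels of the 4 5p arms of the family in 8 libraries, in RPM on a log scale. Points are single libraries, bars are 95% Wilson intervals, and open symbols mark 0 reads, drawn at the level of 3 reads. miR-204a-5p has 32498 RPM in eye and 152 RPM in brain, whereas miR-204b-5p has 1373 RPM in eye and 2399 RPM in brain.

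The distance from eye to the other libraries spanned several orders of magnitude. The eye level of miR-204a-5p was 15.5 times that of slow muscle (exact interval 15.0 to 16.0), 57.3 times that of liver (53.1 to 61.9), 208 times that of heart (188 to 230), and 213 times that of brain (193 to 236). It was 467 times the level in intestine (411 to 532), 7032 times that in ovaries (4644 to 11223), and 34362 times that in testes (9512 to 283750), where it rests on 2 reads. Relative to annotated reads the ratio was 2402 for ovaries and 2680 for testes, and relative to 1–35 nt reads 15126 for ovaries and 84518 for testes, so that only the size of the excess over the gonads changed. Eye held 91.4% of the RPM of miR-204a-5p summed over the 8 libraries. The specificity index tau, which is 0 for even levels and 1 for a name found in a single library, was 0.987. On log2(RPM + 1) it was 0.577, below the value of 0.9 taken here for concentrated features and below the 0.635 of miR-204b-5p, whose tau on the linear scale was 0.915.

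miR-204a-5p was thus at least 10-fold higher in eye than in each of the 7 other libraries, with 0.5 reads added to every library. Of 215 features with at least 100 RPM in a library, 11 (5.12%) met this condition, and 24 (11.2%) were highest in eye. Against single libraries, 10.6% of the features compared were at least 10-fold higher in eye than in brain, 16.4% than in slow muscle, 24.1% than in intestine, 19% than in heart, 21.9% than in liver, 41% than in ovaries, and 71.8% than in testes. The study annotated a far smaller part of the small RNA reads as miRNAs in the gonads than in somatic tissues. The value for testes therefore depended on the library size. Relative to annotated reads, 58 instead of 94 features passed against testes, and 52 instead of 55 against ovaries. The minimum of 100 RPM was then applied to the rescaled levels. The number of features compared thus changed too, and these counts do not give the change in share. By the ratio of eye to the highest other library miR-204a-5p ranked 9, after miR-184b-3p (714), miR-184-3p (134), and the precursor-only reads of its own hairpin (25.2) among others, and before the precursor-only reads of miR-182 (13.2) and miR-183-5p (11.8), which belong to a cluster of photoreceptor and sensory cell miRNAs. It was the most abundant of the 11.

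**Figure D2:**
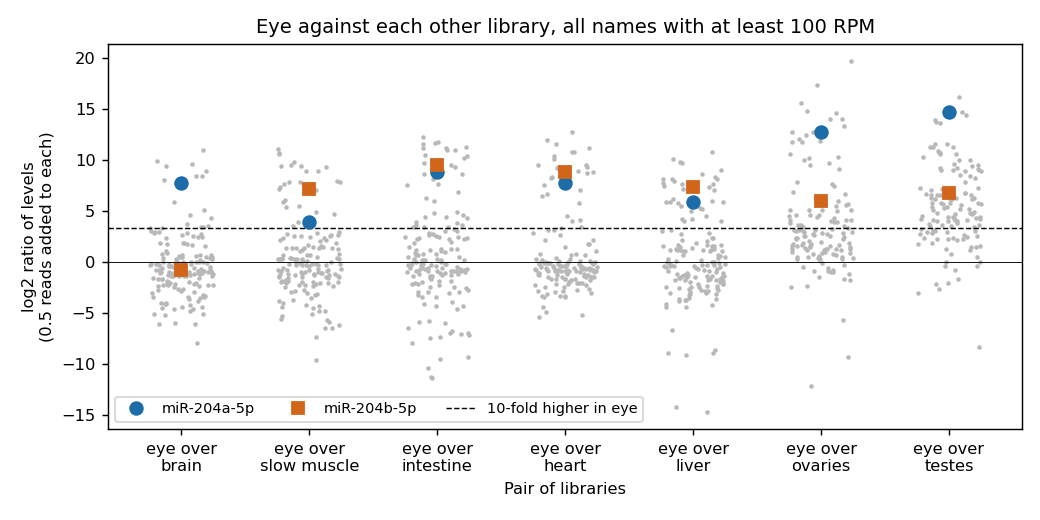
log2 ratio of the level in eye to that in each other library, with 0.5 reads added, for all features with at least 100 RPM in either library of a pair (grey points). miR-204a-5p (circles) lies above the dashed line of a 10-fold ratio in all 7 comparisons, and miR-204b-5p (squares) in 6, with a ratio of 0.572 against brain.

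The slow muscle level of miR-204a-5p was high beside most features concentrated in eye. Of the 215 features, 18 (8.37%) were highest in eye with a tau of at least 0.9, miR-204a-5p and 17 others. Among these 17 are the precursor-only reads of miR-204a itself, and features of the same miRNA, as for miR-184, miR-183, and miR-182, count separately. Slow muscle reached 6.46% of the eye level for miR-204a-5p, whereas the median of the 17 others was 0.411%. Only miR-205-5p (16.9%) and miR-455-5p (8.89%) were above it. In liver the value was 1.74% for miR-204a-5p and 0.336% for the median of the other 17. The order turned in brain, where miR-204a-5p reached 0.469% of its eye level and the median of the others was 3.95%. These values are descriptions, since the features were chosen by their levels in the same libraries.

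Markers of the other tissue were set beside this result. The summed level of the 5 retinal neuron miRNAs was 119245 RPM in eye and 179 RPM in slow muscle, or 0.150% of the eye level, and that of the lens and cornea miRNAs was 6540 RPM in eye and 66.0 RPM in slow muscle, or 1.01%. The whole eye list summed to 136037 RPM in eye and 3968 RPM in slow muscle, or 2.92%. Within it miR-205 (16.9%), miR-181b (8.01%), miR-181a (18.3%), miR-125b (39.9%), and miR-7 (259%) exceeded the slow muscle percentage of miR-204a-5p. The 4 skeletal muscle and heart miRNAs (miR-1, miR-133, miR-206, and miR-499) summed to 6180 RPM in eye and 145058 RPM in slow muscle, with 0 of the 4 at 0 in eye. The skin epithelium miRNAs miR-203 and miR-205 summed to 236 RPM in eye and 106 RPM in slow muscle. The intestine miRNAs miR-192, miR-194, and miR-215 summed to 4829 RPM in slow muscle. Their sum was 61.3 RPM in eye, 48.4 RPM in heart, and 136168 RPM in intestine. The part of other cells in the slow muscle level was not tested, and fewer cells of a type and less RNA per cell cannot be told apart in such tissue samples.

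The features whose profile over the 8 libraries was most like that of miR-204a-5p were found by the overlap of their shares of RPM, where 1 means identical shares. Over 212 features outside the family, these were the precursor-only reads of miR-716b (0.946) and of miR-184 (0.941), miR-184-3p (0.929), the precursor-only reads of miR-182 (0.927), and miR-183-5p (0.926). The median of the 212 was 0.151. The overlap of miR-204a-5p with its own relative miR-204b-5p was 0.369.

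miR-204b-5p was a miRNA of both brain and eye. It had 1905 reads in eye, which is 1373 RPM (95% Wilson interval 1313 to 1436) and rank 35, against 6392 reads, 2399 RPM (2341 to 2459), and rank 27 in brain. The eye level was 0.572 times the brain level (exact interval 0.543 to 0.602), so brain was 1.75 times higher (1.66 to 1.84). Elsewhere the reads were few, with 107 (22.5 RPM) in ovaries, 26 (12.3 RPM) in testes, 18 (9.35 RPM) in slow muscle, 10 (8.30 RPM) in liver, 7 (2.78 RPM) in heart, and 6 (1.76 RPM) in intestine. Testes and slow muscle, slow muscle and liver, and heart and intestine could not be told apart by counting error. The places of the gonads in this order depended on the library size. The level of testes over slow muscle was 1.31 here, 19.2 relative to annotated reads, and 0.368 relative to 1–35 nt reads, and that of ovaries over testes was 1.83 here and 0.417 relative to annotated reads.

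Eye thus exceeded ovaries, the next library, 61.1-fold in miR-204b-5p (exact interval 50.3 to 74.9), and it exceeded each library except brain at least 10-fold. Relative to annotated reads, however, testes were the next library and eye exceeded them 8.71-fold (5.93 to 13.4), below that threshold, while eye over ovaries was 20.9 (17.2 to 25.6). Slow muscle ranked differently for the relatives. Eye exceeded slow muscle 147-fold in miR-204b-5p (92.6 to 248) and 15.5-fold in miR-204a-5p (15.0 to 16.0), and these intervals do not overlap. Whether the few miR-204b-5p reads in slow muscle, liver, heart, and intestine come from read errors in miR-204a-5p was not tested. By the same overlap measure, chosen for this member after its values were seen, miR-204b-5p was most like miR-135b-5p (0.949), which had 2973 RPM in eye and 6172 RPM in brain, followed by miR-124c-3p (0.872). The median over the 212 features was 0.280.

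The ratio of the relatives to each other does not depend on library size. miR-204b made up 4.05% of the miR-204a-5p and miR-204b-5p reads in eye (1905 of 46995 reads, 95% Wilson interval 3.88 to 4.24), against 94.0% in brain (6392 of 6798, 93.4 to 94.6). Ovaries had 82.9% (107 of 129 reads, 75.5 to 88.5) and testes 92.9% (26 of 28 reads, 77.4 to 98.0). In contrast, the share was 0.443% in slow muscle (18 of 4059 reads), 2.46% in intestine (6 of 244), 1.75% in heart (7 of 401), and 1.44% in liver (10 of 693). The libraries thus fell into a set led by miR-204a (eye, slow muscle, intestine, heart, and liver) and a set led by miR-204b (brain, ovaries, and testes), with no share between 4.05% and 82.9%.

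**Figure D3:**
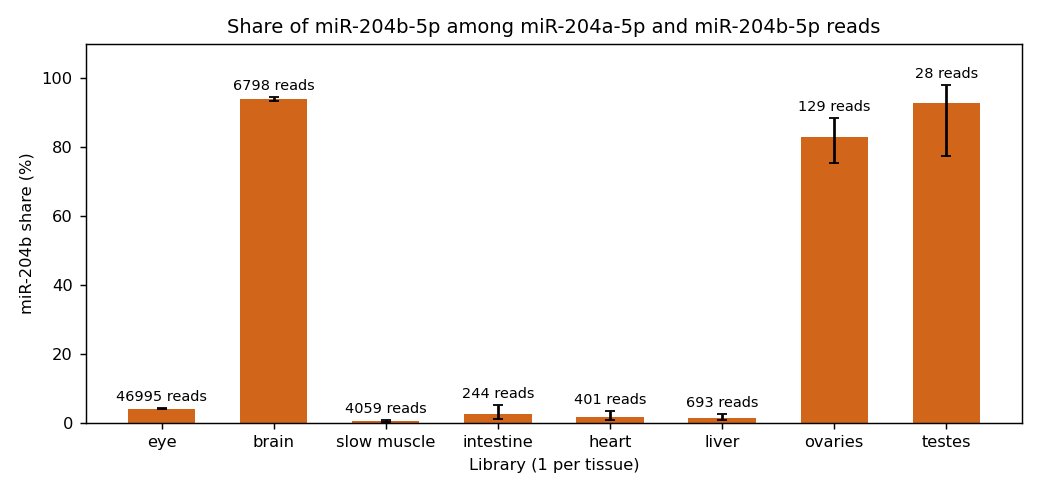
Share of miR-204b-5p, in percent, among the miR-204a-5p and miR-204b-5p reads of each library, with 95% Wilson intervals and the number of reads above each bar. The share is 4.05% in eye and 94.0% in brain, and the libraries separate into 5 of at most 4.05% and 3 of at least 82.9%.

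The family as a whole had 47373 reads in eye (34143 RPM, 10.3% of annotated reads), against 6802 reads in brain (2553 RPM) and 4089 reads in slow muscle (2124 RPM). With the members summed, eye was 13.4 times brain (exact interval 13.0 to 13.7) and 16.1 times slow muscle (15.6 to 16.6). The miR-204a-5p reads alone gave 213 for brain. Reads outside the miR-204a-5p arm were 4.82% of the family in eye (4.63 to 5.02) and 94.0% in brain (93.4 to 94.6).

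The name miR-211-5p was rare. It had 119 reads in eye (85.8 RPM, 95% Wilson interval 71.7 to 103), 9 in slow muscle (4.68 RPM), 2 in brain, 1 in liver, and 0 in intestine, heart, ovaries, and testes. The order of eye over slow muscle was that of miR-204a-5p, with a ratio of 18.3 (exact interval 9.34 to 41.1). Relative to miR-204a-5p, miR-211-5p made up 0.263% in eye (119 of 45209 reads, 0.220 to 0.315), 0.222% in slow muscle (9 of 4050 reads, 0.117 to 0.422), and 0.490% in brain (2 of 408 reads, 0.135 to 1.77). For the 22 nt mouse form against the 22 nt form of miR-204a-5p, the shares were 0.234% in eye and 0.196% in slow muscle. The intervals of these shares overlapped in the libraries with the most miR-204a-5p reads, eye and slow muscle. Whether these reads come from a separate gene or from read errors in miR-204a-5p was not tested.

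The name miR-204-5p held mostly miR-204a-5p reads with additional bases. Of its 80 reads in eye (57.7 RPM), 78 contained all 22 bases of the leading miR-204a-5p sequence, as did all 11 reads in slow muscle, 3 in liver, 2 in intestine, and 1 in brain. The 24 nt forms were divided among entries by their last base, which is in capitals here to show how the entry names arose.
miR-204-5p, lamprey entry: ttccctttgtcatcctatgcctgT
miR-204-5p, human entry: ttccctttgtcatcctatgcctgA
miR-204-5p, zebrafish entry: ttccctttgtcatcctatgcctgC
Among the 83 such 24 nt reads in eye, base 24 was T in 49, A in 22, G in 10, and C in 2. The reads ending in G stayed under miR-204a-5p.

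Reads of miR-204a-5p in eye were uniform, but their ends were not those of miR-204b-5p. The leading 22 nt sequence made up 87.0% of miR-204a-5p reads in eye (39210 of 45090, 95% Wilson interval 86.6 to 87.3), against 88.2% in slow muscle and 87.9% in brain. The leading sequence of miR-204b-5p made up 85.2% in eye (1624 of 1905 reads) and 86.6% in brain (5536 of 6392). Variants of the relatives are shown with the bases in position 2 to 8 of each read in capitals, because a shifted 5′ start shifts the seed.
miR-204a-5p, 1 nt upstream start: cTTCCCTTtgtcatcctatgcct
miR-204a-5p, 1 nt upstream start and 1 nt shorter: cTTCCCTTtgtcatcctatgcc
miR-204a-5p, 1 nt downstream start: tCCCTTTGtcatcctatgcct
miR-204b-5p, 1 nt longer: tTCCCTTTgttatcctatgcctg

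The 5′ start 1 nt upstream set miR-204a-5p apart from miR-204b-5p in eye and brain. It was present in 2012 of 45090 miR-204a-5p reads in eye, or 4.46% (4.28 to 4.66). It was not found in miR-204b-5p, at 0 of 1905 reads in eye (upper limit of the Wilson interval 0.201%) and 0 of 6392 reads in brain (upper limit 0.0601%). The difference between the relatives was 4.46 percentage points in eye (Newcombe interval 4.19 to 4.66) and 3.69 points in brain (2.25 to 6.01), where miR-204a-5p had 15 of 406 reads with this start. In slow muscle 1 of 18 miR-204b-5p reads had this start. All miR-204b reads match the *Tetraodon* entry, so reads with another upstream base would not be counted, and the part of this in the difference was not tested. miR-211-5p had the upstream start in 9 of 119 eye reads, or 7.56% (4.02 to 13.8), a share 3.10 points above that of miR-204a-5p with an interval that included 0 (-0.44 to 9.29), and 7.56 points above that of miR-204b-5p (4.02 to 13.8).

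The 3′ end showed the opposite order. In eye, 0.896% of miR-204a-5p reads (404 of 45090) ended at base 23, against 6.40% of miR-204b-5p reads (122 of 1905), a difference of -5.51 points (-6.70 to -4.49). The share of miR-204b-5p in brain was 6.35% (406 of 6392), and the eye share exceeded it by 0.05 points with an interval that included 0 (-1.14 to 1.37). In brain miR-204a-5p had 0 of 406 such reads (upper limit of the Wilson interval 0.937%). Counting the miR-204-5p reads that hold its 22 bases as miR-204a-5p raised its share of reads ending beyond base 22 in eye to 1.09%, against 6.67% for miR-204b-5p. The order of the relatives was thus the same in eye and brain for the upstream start and for the end at base 23. For the downstream start it was not. In eye this start had 0.464% of miR-204a-5p and 0.787% of miR-204b-5p reads (difference -0.32 points, -0.83 to -0.007). In brain it had 1.23% (5 of 406 reads) and 0.422% (27 of 6392), a difference of 0.81 points (0.08 to 2.43).

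**Figure D4:**
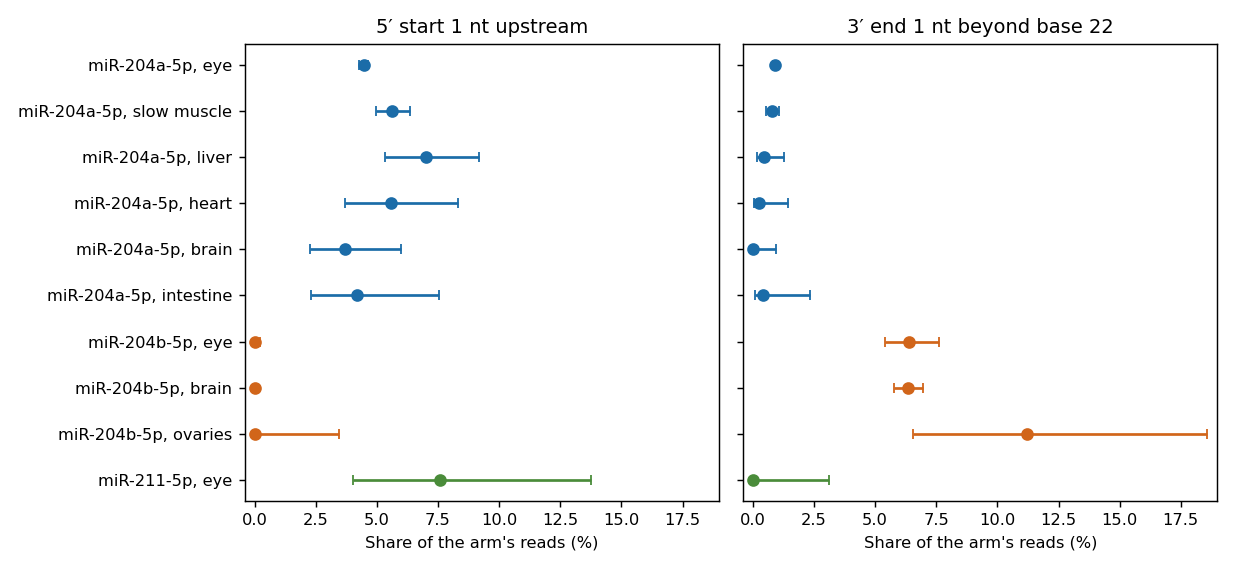
Share of reads, in percent of the arm's reads, with a 5′ start 1 nt upstream (left) and with a 3′ end 1 nt beyond base 22 (right) of the leading sequence, for miR-204a-5p, miR-204b-5p, and miR-211-5p in libraries with at least 100 of their reads. Points are single libraries and bars are 95% Wilson intervals. miR-204a-5p has the upstream start in 4.46% of eye reads and miR-204b-5p in 0%, whereas the longer 3′ end has 0.896% in miR-204a-5p and 6.40% in miR-204b-5p in eye.

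Between the 6 somatic tissues the ends of miR-204a-5p differed by a few percentage points. The upstream start had shares of 4.46% in eye, 3.69% in brain, 4.20% in intestine, 5.58% in heart, 5.62% in slow muscle, and 7.03% in liver. Eye was below slow muscle by 1.16 points (difference -1.16, Newcombe interval -1.93 to -0.46) and below liver by 2.57 points (difference -2.57, -4.74 to -0.87), and the intervals for heart, intestine, and brain included 0. Reads shorter than base 22 at the 3′ end were 8.51% in eye and 5.89% in slow muscle, a difference of 2.62 points (1.81 to 3.35), and the intervals for brain, intestine, heart, and liver included 0. Ovaries had only 22 reads of miR-204a-5p, of which 8 (36.4%, 19.7 to 57.0) were shorter than base 22 and 14 (63.6%) were the leading sequence. Eye was lower than ovaries in the shorter reads (difference -27.9 points, -48.5 to -11.2) and higher in the leading sequence (23.3 points, 6.69 to 44.0). Ovaries lay below the minimum of 50 reads of the arm set for comparing ends, so these differences are descriptions only. Testes, with 2 reads, were not compared. A downstream start was found in 0.464% of eye reads of miR-204a-5p (209 reads) and in 1.23% of its brain reads (5 of 406). Eye was below brain in this start (difference -0.77 points, -2.39 to -0.06). The intervals for slow muscle, intestine, heart, and liver included 0.

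The ends of single reads were linked. Among miR-204a-5p reads in eye with the upstream start, 20.4% ended at base 21 (410 of 2012), and so were 22 nt long, against 5.10% of the reads with the leading start (2185 of 42865). The difference was 15.3 points (13.6 to 17.1) in eye and 11.9 points (7.75 to 17.2) in slow muscle. Over the 5p reads of the whole family, the seed TCCCTTT was carried from the leading start by 95.2% in eye (44939 of 47194 reads) and 99.2% in brain (6749 of 6801), the upstream start adding 4.29% in eye and 0.235% in brain.

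The opposite arm of the miR-204a hairpin was detected at a low level. No mature 3p entry of the torafugu took these reads, and they stood among the precursor-only reads of miR-204a. In eye, 161 of its 172 precursor-only reads lay on the 3p side, or 0.356% of all miR-204a reads (95% Wilson interval 0.305 to 0.415), which is 280 5p reads for every 3p read. Slow muscle had 9 such reads, or 0.222% (0.117 to 0.422), liver 2, intestine 1, and brain and heart 0. The leading forms are shown with bases 2 to 8 in capitals, beside the 3p sequence that was assigned to human miR-211.
miR-204a 3p arm: gCAGGGACagcaaagggatgc
miR-204a 3p arm, 1 nt shorter: gCAGGGACagcaaagggatg
miR-211-3p, human entry: gCAGGGACagcaaaggggtgc
In eye the leading form had 52 reads, the shorter form 48, and the miR-211-3p form 3. The human miR-211-3p form differed from the miR-204a arm by A18G. The 5′ start of the leading 3p form was shared by 127 of the 161 eye reads (78.9%), and 33 (20.5%) started 1 nt downstream. The names miR-211-3p and miR-204-3p had 5 and 2 reads in eye. No 3p read was found for miR-204b, whose only precursor-only read, in brain, lay on the 5p side. Only reads that match the *Tetraodon* entry were counted for miR-204b, so a torafugu 3p arm with another base would be missed.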

How the data were processed

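Libraries of fractionated small RNA were read on a SOLiD sequencer. After adaptor trimming the authors collapsed the 18–25 nt reads and assigned each sequence to miRBase entries with CLC genomics workbench. The authors deposited, for each library, the unnormalized read counts of the assigned sequences, all with 0 mismatches to their entry. Reads that the authors annotated under looser criteria were not used here. Repeated header lines (47) were skipped.

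Counts were summed by name (copy suffixes dropped), arm, and tissue. RPM were reads per 1000000 reads of 18–25 nt, with the library totals that the study gives. Shares and RPM carry 95% Wilson intervals, ratios exact Clopper-Pearson intervals, and differences of shares Newcombe intervals. The floor was 3 reads. Each 5′ start was placed on the leading sequence of the arm by ungapped overlap. Named features were all family members, the 10 most abundant in eye, the 5 most like miR-204a-5p, and tissue markers. The members and lists were chosen with earlier results of these data known. Intervals were tested on simulated data. Alternatives were other library sizes, edgeR's TMM scaling, mature or identical matches, collapsed names, and other thresholds. Python 3.11.15, numpy 2.4.6, scipy 1.17.1, pandas 2.3.3, matplotlib 3.10.9, R 4.3.3, and edgeR 4.0.16 were used.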

Additional observations from a re-analysis of the deposited data

How the results depend on the processing

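No paired analysis was possible because each tissue was a single library and no test across samples was made. The scale of all levels depended on the library size. In eye, the family had 103254 RPM relative to annotated reads, 18057 RPM relative to 1–35 nt reads, 120601 RPM under TMM scaling, and 29503 RPM with sequences identical to a mature entry only. The corresponding values of miR-204a-5p were 98278, 17187, 114789, and 28260, and 33928 RPM with names collapsed to their number. The eye to slow muscle ratio of miR-204a-5p was 17.6 with annotated reads, 10.6 with 1–35 nt reads, 21.2 with TMM scaling, and 16.0 with collapsed names, so it stayed above 10 under each. Its eye share was 92.2% with annotated reads and 86.0% with collapsed names, and tau was 0.988 with annotated reads, 0.977 with collapsed names, and 0.577 on log2(RPM + 1). With collapsed names, which join miR-204b to miR-204a, the eye to brain ratio was 13.3, and the leading sequence made up 83.3% of the joined 5p reads in eye. Reads outside the leading arm were 4.47% with mature matches only.

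The 18 features at least 10-fold higher in eye than in brain became 30 at 4-fold, 46 without a minimum level, 7 at 1000 RPM, 28 with annotated reads, and 29 with TMM scaling. The 26 over slow muscle became 40, 62, 13, 41, and 43 under the same settings. The 94 over testes became 58 with annotated reads and 68 with TMM scaling. With annotated reads or TMM scaling the minimum of 100 RPM admits features with fewer reads, so the number of features compared changes and the counts cannot be read as shares.

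The alternatives for miR-204b-5p and for neighbouring libraries were chosen after seeing the data. The brain to eye ratio was 1.66 with annotated reads, 2.42 with 1–35 nt reads, and 1.52 with TMM scaling, so brain stayed above eye under each. The share of miR-204b stayed within its interval in eye and brain with identical matches only or with miR-204-5p reads added to miR-204a-5p. For levels and ratios the limit of a change was the counting interval, and for counts of features it was a fixed fold around the main value. A ratio was called reversed where its interval lay above 1 at the main setting and its value fell below 1 under the alternative. Of the remaining single values under the alternatives, 88 stayed within this limit, 106 moved beyond it, and 2 reversed. Those 2 were miR-204b-5p in ovaries over testes, at 0.417 with annotated reads and 0.512 with TMM scaling. These counts do not measure robustness, because every level left its counting interval when the library size was changed. Ratios from few reads had wide limits. The eye to testes ratio of miR-204a-5p went from 34362 to 84518 with 1–35 nt reads and counts as unmoved. Testes over slow muscle in miR-204b-5p fell from 1.31 to 0.368 with 1–35 nt reads but counts as moved, because its main interval included 1. miR-204b-5p in eye over testes was 8.71 with annotated reads and 12.8 with TMM scaling. Liver over heart in miR-204b-5p, whose interval excluded 1 at the main setting, included it under all 3 other library sizes. Depth limits the values of testes, with 28 family reads, and of ovaries, with 129.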

Other observations

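In RefSeq's gene table for assembly fTakRub1.2, 1 gene of the family carries a symbol, mir204a. It lies within the protein-coding gene LOC101068071, with klf13 and otud7a among the protein-coding neighbours on one side and rps27l and dnaja on the other. In human, KLF13 and OTUD7A lie near TRPM1, the gene whose intron holds miR-211. The deposited files name no genome build, and the place of miR-204b was not looked up in a genome here. The miR-204a reads were not compared with the sequence of the mir204a gene. Which human gene LOC101068071 corresponds to was not tested.

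The study lists the primers of its stem-loop PCR. The forward primer of fru-miR-204-5p equals the leading 22 nt sequence of miR-204a-5p. The last 6 bases of its stem-loop primer, AGGCTA, are the reverse complement of TAGCCT, and 0 of 50876 miR-204a-5p reads in the 8 libraries ended in or contained TAGCCT. The reverse complement of the last 6 bases of the leading sequence is AGGCAT. For 6 of the 10 primer pairs listed, among them miR-145-5p and miR-122-5p, the stem-loop primer did match the end of the most abundant sequence within the forward primer. The study calls fru-miR-204-5p eye specific. For this miRNA the study nevertheless reports a good correlation of sequencing and PCR, which was run on replicate samples of each tissue. Among matching pairs it reports this for miR-122-5p, miR-1-3p, and miR-145-5p, but not for miR-2478-3p, miR-192-5p, and miR-499-5p. Among the others it reports this for miR-9-3p and fru-miR-204-5p, but not for miR-202-5p and miR-196a-5p. The forward primer listed for miR-9-3p holds the miR-9-5p sequence, so miR-9-5p reads were compared with it. That forward primer also contains the bases with which the miR-9-3p stem-loop primer pairs, unlike the forward primer of fru-miR-204-5p. The effect of the miR-204 mismatch on the PCR was not tested.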
